A study of Mus musculus with 15 samples.

Results

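The transcripts described here are those of 42 genes that dividing cells use to copy their DNA and to separate the copies, 12 of them acting in S phase and 30 in mitosis. The genes were listed by name, and a gene was measured where the array annotation gave a transcript cluster (the probe set of 1 gene) its symbol and no other. By this rule 37 of the 42 were measured, among 18718 genes in all: 10 of the 12 S phase genes and 27 of the 30 mitosis genes. Ccne2, Tyms, Kif20a and Nusap1 were found only in transcript clusters with several symbols, and Ccnb1 had no transcript cluster with its symbol alone. Top2a and Pcna had more than 1 transcript cluster, of which that with the higher mean was used.

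The cells were mesenchymal stroma of thymus and lymph node from C57BL/6 mice aged 2 weeks, digested with liberase and DNase I and sorted by flow cytometry for the receptor PDGFRβ. From thymus, cells without podoplanin (PDPN-) and cells with it but without BP3 (PDPN+BP3-) were taken. From inguinal, brachial and axillary lymph nodes, pooled, these populations and a further one with both antigens (PDPN+BP3+) were taken. Bst1 codes for BP3. The PDPN- cells of both organs were also sorted as positive for Ly51, which Enpep codes for. Each population was hybridised to 3 Affymetrix Mouse Gene 1.1 ST arrays from 3 individual experiments (n = 3, 15 arrays in all). Each thymus array came from 3 mice and each lymph node array from 10 to 11, so pool size and organ cannot be told apart. Values are log2 signal, and a difference is a log2 difference ± the standard error of the limma fit, called higher or lower where the adjusted p was under 0.05.

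A cell commits to division when D-type cyclins with CDK4 or CDK6 release E2F factors from the RB family, and E2F then switches on the genes of DNA replication. Genes of mitosis are switched on later, through the MYB-MuvB complex and FOXM1, which act largely at a promoter element called the cell cycle genes homology region (CHR), often with CCAAT boxes bound by NF-Y. In cells that have left the cycle both sets are repressed, so their transcripts serve as a reading of how much of a tissue is dividing. The podoplanin-positive stroma of lymph nodes includes the fibroblastic reticular cells, which build the scaffold on which lymphocytes move.

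The promoters of the 3 S phase genes and the 3 mitosis genes that separated the lymph node PDPN+BP3+ from the PDPN+BP3- cells most clearly, among those with a promoter listed, are shown to let the elements of both classes be compared. Each is 300 bases of RefSeq sequence on build GRCm38.p6, from 250 before to 50 after the listed start, read 5′ to 3′ along the gene. Capitals mark matches on either strand to the CHR core TTTGAA, to the box CCAAT, or to an E2F-like octamer. The octamers searched were TTTCCCGC, then TTTGGCGC, and as a further spelling TTTCGCGC. Neighbouring matches can overlap, as the E2F-like pair of Mcm5 does.
Uhrf1: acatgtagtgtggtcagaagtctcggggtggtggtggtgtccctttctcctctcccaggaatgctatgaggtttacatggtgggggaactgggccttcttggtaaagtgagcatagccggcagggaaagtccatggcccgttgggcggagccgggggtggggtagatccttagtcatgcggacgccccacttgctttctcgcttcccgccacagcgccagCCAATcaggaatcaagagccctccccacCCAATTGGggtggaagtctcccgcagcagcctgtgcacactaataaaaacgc
Mcm2: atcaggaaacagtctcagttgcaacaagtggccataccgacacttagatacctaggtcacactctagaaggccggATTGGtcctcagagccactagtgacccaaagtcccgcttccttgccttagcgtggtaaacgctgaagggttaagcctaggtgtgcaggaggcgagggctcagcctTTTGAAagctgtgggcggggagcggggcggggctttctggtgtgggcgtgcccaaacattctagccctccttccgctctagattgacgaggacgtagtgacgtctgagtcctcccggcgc
Mcm5: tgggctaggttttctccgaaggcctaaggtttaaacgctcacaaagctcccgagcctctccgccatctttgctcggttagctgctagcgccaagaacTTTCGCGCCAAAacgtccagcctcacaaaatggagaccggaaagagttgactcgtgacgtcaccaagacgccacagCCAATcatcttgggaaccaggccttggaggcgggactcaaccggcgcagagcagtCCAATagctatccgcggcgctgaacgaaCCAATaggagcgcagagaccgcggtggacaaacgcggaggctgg
Plk1: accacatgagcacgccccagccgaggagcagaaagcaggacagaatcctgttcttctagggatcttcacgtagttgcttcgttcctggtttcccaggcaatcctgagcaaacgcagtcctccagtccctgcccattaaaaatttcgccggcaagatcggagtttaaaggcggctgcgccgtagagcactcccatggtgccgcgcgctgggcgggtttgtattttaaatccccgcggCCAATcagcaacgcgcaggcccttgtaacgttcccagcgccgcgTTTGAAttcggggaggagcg
Cdca8: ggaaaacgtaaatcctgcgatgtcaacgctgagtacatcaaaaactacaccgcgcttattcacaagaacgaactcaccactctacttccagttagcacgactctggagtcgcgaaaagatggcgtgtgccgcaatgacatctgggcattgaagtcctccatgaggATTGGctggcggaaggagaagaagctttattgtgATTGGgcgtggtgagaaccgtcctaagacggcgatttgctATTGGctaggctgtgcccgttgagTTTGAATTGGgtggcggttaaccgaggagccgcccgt
Bub1: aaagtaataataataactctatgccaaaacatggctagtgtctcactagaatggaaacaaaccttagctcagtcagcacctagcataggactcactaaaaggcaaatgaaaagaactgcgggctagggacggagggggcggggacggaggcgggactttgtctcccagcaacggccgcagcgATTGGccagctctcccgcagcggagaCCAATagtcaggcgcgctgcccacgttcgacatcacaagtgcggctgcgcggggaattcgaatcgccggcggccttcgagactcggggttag
These stretches are at chr17:56303087-56303386 (Uhrf1, plus strand), chr6:88898731-88899030 (Mcm2, minus strand), chr8:75109259-75109558 (Mcm5, plus strand), chr7:122159185-122159484 (Plk1, plus strand), chr4:124936868-124937167 (Cdca8, minus strand) and chr2:127831810-127832109 (Bub1, minus strand).

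A promoter was listed for 34 of the 37 measured genes, all but Tpx2, Ccna2 and Aurkb, and the first listed was used for the 3 genes with several. TTTGAA was present in 19 of 24 mitosis promoters (79.2%), in 2 of 10 S phase promoters (20.0%, those of Cdc45 and Mcm2) and in 17.9% of all 32851 promoters of the table. In Plk1 and Cdca8 it lay 31 and 14 bases downstream of the listed start, while Bub1 had none in this window. CCAAT was found in 75.0% of the mitosis promoters, 80.0% of the S phase promoters and 37.4% of all promoters. TTTGAA and CCAAT together were found in 66.7%, 20.0% and 6.95%. An E2F-like octamer was present in 4 of 10 S phase promoters (40.0%: Cdc6, Mcm3, Mcm5 and Mcm6), in 1 of 24 mitosis promoters (4.17%: Cdk1) and in 1.84% of all. The 32851 promoters include further promoters of the same gene. Over the first promoter of each of 27025 genes, TTTGAA was in 18.1%, CCAAT in 37.9% and the pair in 7.12%. An E2F-like octamer was in 1.91% of them. These matches are a description of letters, and no binding was measured.

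The lymph node PDPN+BP3+ cells stood at the top of these genes and the lymph node PDPN+BP3- cells, the other podoplanin-positive population of the same nodes, stood at the bottom. The mean of 36 of the 37 measured genes was highest in PDPN+BP3+ cells, against 24.1% of all genes, and the exception was Pcna. Lymph node PDPN+BP3- cells had the lowest mean for 33 of 37, against 15.2% of all genes. For 31 of the 37 genes (25 of 27 mitosis, 6 of 10 S phase) all 3 PDPN+BP3+ arrays lay above the 12 others, which 7.06% of all genes did. The 6 for which they did not were Ccne1, Cdc6, Rrm2, Pcna, Aurka and Ect2. For 11 genes, all of mitosis, the 3 lymph node PDPN+BP3- arrays lay below the 12 others, which 0.86% of all genes did.

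**Figure D1:**
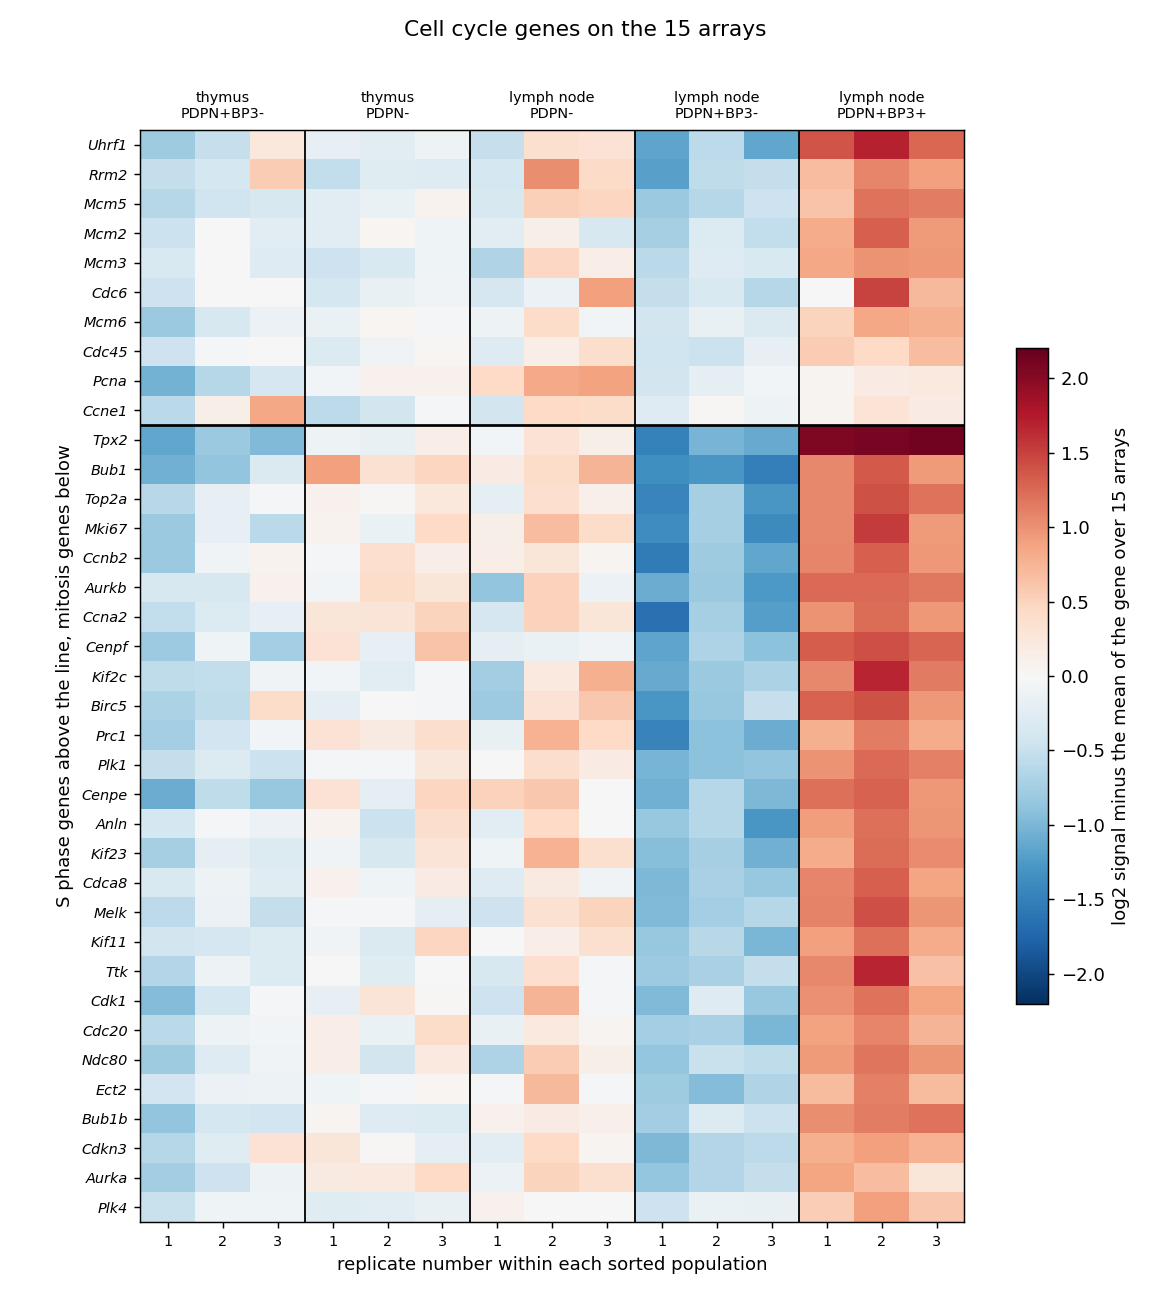
Each row is a gene and each column an array, coloured by the log2 signal minus the mean of that gene over the 15 arrays, with S phase genes above the line, mitosis genes below it, and each class sorted by the difference of lymph node PDPN+BP3+ from PDPN+BP3- cells. The PDPN+BP3+ columns are red for nearly all genes, the lymph node PDPN+BP3- columns are blue for most, and the other populations lie between.

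Mki67, which codes for the proliferation antigen Ki-67, measured 6.91, 7.40 and 6.80 on the PDPN+BP3+ arrays. It measured 5.98, 6.54 and 6.26 in lymph node PDPN- cells and 5.93, 5.71 and 6.30 in thymus PDPN- cells. In thymus PDPN+BP3- cells it was at 5.05, 5.67 and 5.26, and in lymph node PDPN+BP3- cells at 4.49, 5.12 and 4.46. The PDPN+BP3+ arrays were above all others, the PDPN- arrays of the organs overlapped, and the lymph node PDPN+BP3- arrays overlapped those of thymus PDPN+BP3- only. Tpx2, which targets and activates Aurora A on spindle microtubules, was at 7.63, 7.67 and 7.70 in PDPN+BP3+ cells. On the PDPN- arrays it was at 5.51, 5.89 and 5.70 in lymph node and at 5.47, 5.41 and 5.72 in thymus. Podoplanin-positive BP3- cells measured 4.08, 4.55 and 4.47 in lymph node and 4.43, 4.76 and 4.61 in thymus. Tpx2 thus fell into 3 ranges that did not overlap: PDPN+BP3+, PDPN- and PDPN+BP3-.

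**Figure D2:**
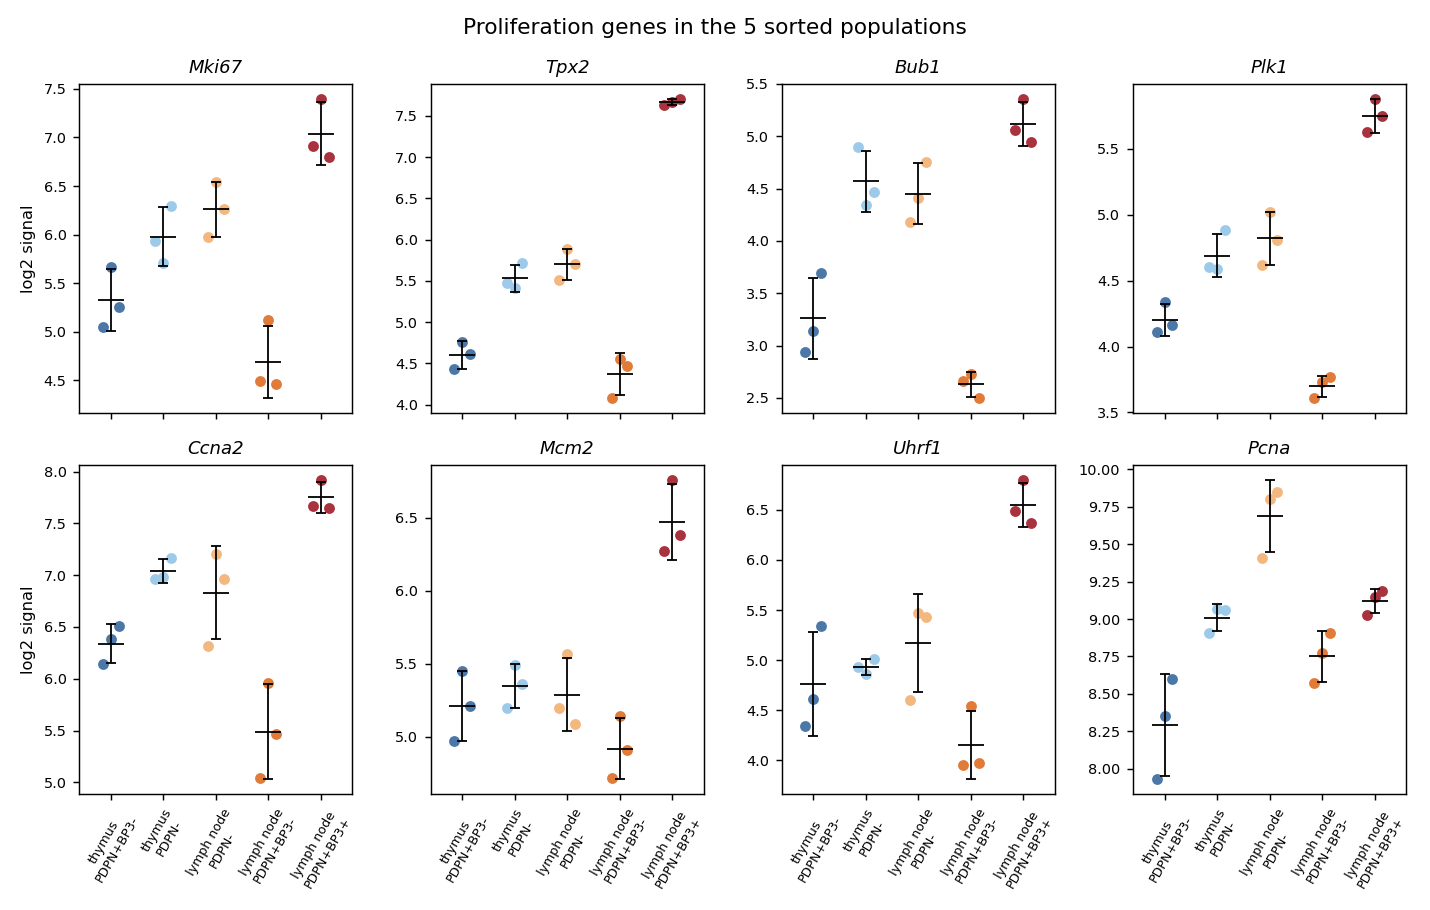
Points are the log2 signals of single arrays for 8 genes in the 5 sorted populations, and the bars are mean ± SD (n = 3). Mki67, Tpx2, Bub1, Plk1, Ccna2, Mcm2 and Uhrf1 are highest on the lymph node PDPN+BP3+ arrays, while Pcna is highest in lymph node PDPN- cells. The vertical axes do not start at 0 and differ between genes.

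Within a population, the arrays stood further apart on these genes than on all genes, and 1 array was often the lowest or highest for most of them. The median range of the measured genes within a population was 0.67 in lymph node PDPN- cells, 0.53 in those of thymus PDPN+BP3-, and from 0.32 to 0.40 elsewhere, against 0.23 to 0.35 over all genes. Replicate 1 of lymph node PDPN- was the lowest of its population for 33 of 37 genes and its replicate 2 the highest for 27. Thymus PDPN+BP3- replicate 1 was the lowest of its population for 36 of 37. This array had a median over the table of 3.58, against 3.77 to 3.885 on the others. Several of the results that rest on it, but not all, are given below without it too. For 10 of the 37 genes at least 1 population had a mean under the table median of 3.80, where a signal need not stand above background, and Cdc6 was under it in all 5 populations. The other 9, each under it in lymph node PDPN+BP3- cells, were Bub1, Cdkn3, Cenpe, Cenpf, Plk1, Kif2c, Ect2, Melk and Ttk. In thymus PDPN+BP3- cells Bub1 (3.26), Cenpe (3.22), Kif2c (3.19), Melk (3.49) and Ttk (3.12) were under it too. Kif2c and Ttk were also under it in the PDPN- cells of each organ.

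The sorted cells carried the markers of their labels: Pdgfrb averaged 8.94 to 10.61, Pdpn 8.16 to 9.11 in the PDPN+ and 3.01 to 3.41 in the PDPN- populations, and Bst1 8.74 in PDPN+BP3+ cells against 2.18 to 3.30 elsewhere. Proliferating lymphocytes express the same genes, so markers of other cells were read as well. The mean of 11 T lineage genes was 2.51 to 2.67 on the 9 lymph node arrays, where 0 of the 11 were above the table median on all arrays of any population. On the thymus arrays it was 4.55 to 5.03 in PDPN- and 3.21, 4.43 and 4.53 in PDPN+BP3- cells, the lowest being replicate 1. The 6 B cell genes averaged 2.26 to 2.58 on the 15 arrays and 4 red cell genes 2.45 to 2.90, both below the table median. In this bulk RNA, fewer dividing cells and less of these transcripts per dividing cell cannot be told apart.

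**Figure D3:**
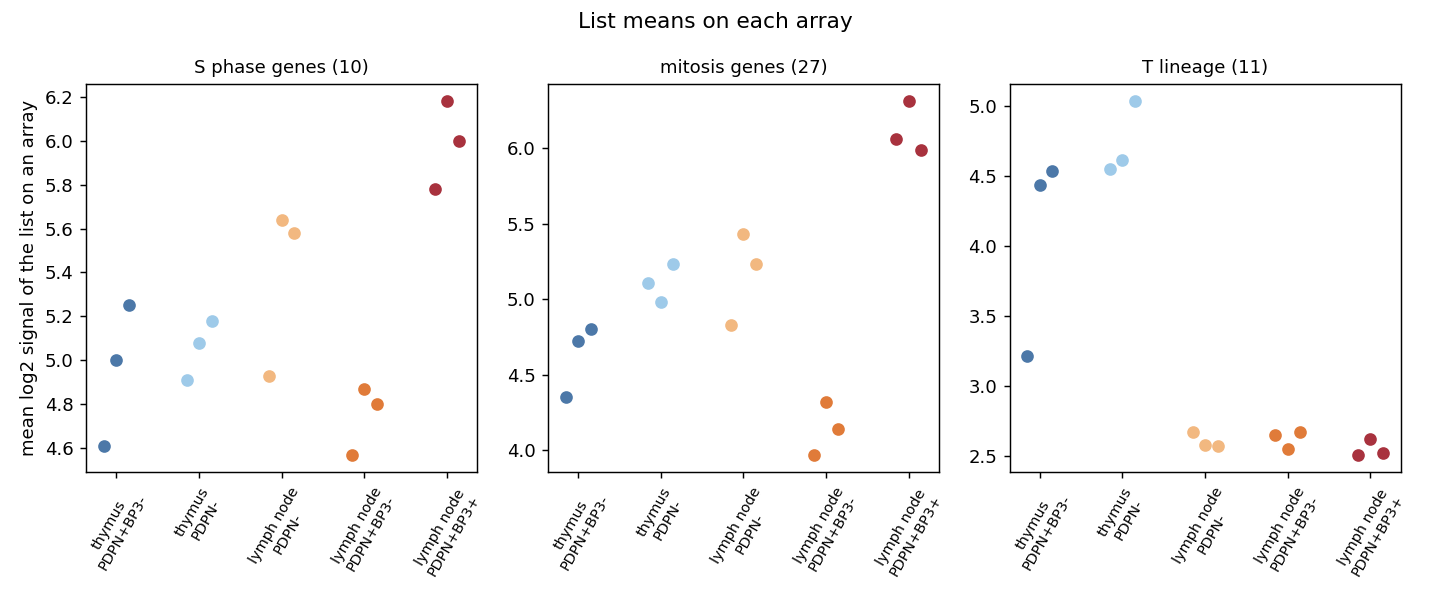
Each point is the mean log2 signal on 1 array over the measured S phase genes (10), mitosis genes (27) or T lineage genes (11), for the 3 arrays of each sorted population. The mitosis genes average 5.99 to 6.31 on the lymph node PDPN+BP3+ arrays and 3.97 to 4.32 on the lymph node PDPN+BP3- arrays, while the T lineage genes stay at 2.51 to 2.67 on every lymph node array.

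Within the podoplanin-positive stroma of lymph nodes, the comparison of PDPN+BP3+ with PDPN+BP3- cells asked how the populations that do and do not carry BP3 differ. The proliferation genes were higher in PDPN+BP3+ cells: 35 of 37 were called higher and 0 lower, where 8.49% of all genes were called higher and 7.74% lower. All 27 mitosis genes and 8 of 10 S phase genes were among them, and the exceptions were Ccne1 and Pcna. The median difference was 1.80, against 0.01 over all genes.

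Among the S phase genes, the helicase subunits that are loaded at replication origins were all higher in PDPN+BP3+ cells: Mcm2 by 1.55 ± 0.17 (adjusted p 3.96e-06), Mcm5 by 1.62 ± 0.21, Mcm3 by 1.33 ± 0.21 and Mcm6 by 1.0 ± 0.17. Mcm2 measured 6.27, 6.76 and 6.38 there and 4.72, 5.14 and 4.91 in PDPN+BP3- cells, with no overlap. Cdc45, which activates the loaded helicase, was higher by 0.92 ± 0.17. Cdc6, which loads it, was higher by 1.23 ± 0.32 (adjusted p 0.0136), but its values of 2.85, 4.35 and 3.58 against 2.33, 2.52 and 2.23 were spread widely. Its adjusted p was 0.0901 without PDPN+BP3+ replicate 2 and 0.0518 without PDPN+BP3- replicate 3. Uhrf1, which helps DNA methylation to be copied onto the new strand, had the largest S phase difference, 2.40 ± 0.25 (adjusted p 2.94e-06). It measured 6.49, 6.80 and 6.37 against 3.95, 4.54 and 3.97. Rrm2, the regulated subunit of ribonucleotide reductase, was higher by 1.64 ± 0.31.

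The sliding clamp Pcna and cyclin E1 (Ccne1) did not pass the test. Pcna measured 9.03, 9.15 and 9.19 in PDPN+BP3+ and 8.57, 8.77 and 8.91 in PDPN+BP3- cells (difference 0.37 ± 0.16, adjusted p 0.145). The other transcript cluster of Pcna gave means within 0.01 of the one used in each population, and which transcripts each reads was not tested. Ccne1 was at 4.23, 4.47 and 4.35 against 3.88, 4.19 and 4.05 (0.31 ± 0.29, adjusted p 0.612).

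The engine of mitotic entry was higher in PDPN+BP3+ cells in each of its measured parts. Cdk1, the mitotic kinase, differed by 1.72 ± 0.27, and its partners cyclin A2 (Ccna2) and cyclin B2 (Ccnb2) by 2.26 ± 0.22 and 2.28 ± 0.22. Ccna2 measured 7.67, 7.92 and 7.65 against 5.04, 5.96 and 5.47. Plk1, which drives entry into mitosis and spindle assembly, measured 5.63, 5.88 and 5.75 against 3.61, 3.73 and 3.77, a difference of 2.05 ± 0.13 (adjusted p 4.31e-09). Both ranges were narrow and far apart. Plk4, the kinase of centriole duplication, had the smallest mitosis difference at 0.94 ± 0.13. Cdc20, which activates the anaphase-promoting complex, was higher by 1.72 ± 0.17 and the CDK phosphatase Cdkn3 by 1.56 ± 0.21. The kinase Melk was higher by 1.93 ± 0.20 and the chromosome-untangling topoisomerase Top2a by 2.37 ± 0.19. The Top2a transcript cluster that was not used had means of 1.92 in PDPN+BP3+ and 1.67 in PDPN+BP3- cells, under the table median. Mki67 differed by 2.35 ± 0.22 (adjusted p 9.12e-07).

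Genes of the kinetochore, the spindle checkpoint and the spindle were higher as well. The largest difference of the 37 genes was that of Tpx2, 3.30 ± 0.14 (adjusted p 6.96e-11), and its client kinase Aurka was higher by 1.28 ± 0.19. The checkpoint kinase Bub1 measured 5.06, 5.36 and 4.95 against 2.66, 2.73 and 2.50, a difference of 2.49 ± 0.20, with the PDPN+BP3- values under the table median. Bub1b (1.62 ± 0.15) and Ttk (1.80 ± 0.23), of the same checkpoint, were higher too. At the kinetochore, Cenpf differed by 2.26 ± 0.20, the motor Cenpe by 2.04 ± 0.20 and the microtubule coupler Ndc80 by 1.66 ± 0.26. The motor Kif11, which pushes spindle poles apart, was higher by 1.80 ± 0.18, and the microtubule depolymerase Kif2c by 2.16 ± 0.28. The chromosomal passenger genes Aurkb (2.27 ± 0.25), Birc5 (2.09 ± 0.32) and Cdca8 (1.93 ± 0.14) were higher. Of the genes of the midzone and of cell cleavage, Prc1 differed by 2.06 ± 0.22, Kif23 by 1.94 ± 0.21, Ect2 by 1.63 ± 0.18 and Anln by 1.95 ± 0.22.

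Markers of other cells differed between these populations as follows. None of the 11 T lineage genes was called. Of 6 B cell genes Blnk was higher (1.10 ± 0.16), at a mean of 3.72. Of 7 myeloid genes Cd14 was called higher (1.90 ± 0.25) and 0 lower, with 3 of the 7 differences above 0 and 4 below. Csf1r averaged 2.60 in PDPN+BP3+ and 2.51 in PDPN+BP3- cells, and Itgam 2.18 in both. Cd68 stood above the table median, at a mean of 5.18 in PDPN+BP3+ and 5.75 in PDPN+BP3- cells. In the same order, Lyz2 measured 4.33, 4.31 and 3.37 against 3.43, 4.29 and 3.59. Fcer1g measured 3.13, 3.08 and 2.80 against 3.78, 3.54 and 3.23. Of 7 endothelial genes 5 were lower in PDPN+BP3+ cells, among them Cdh5 (-1.78 ± 0.19), and their mean was 3.20 to 3.44 on those arrays against 3.98 to 4.40. The part of the myeloid and endothelial markers in the result was not tested.

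**Figure D4:**
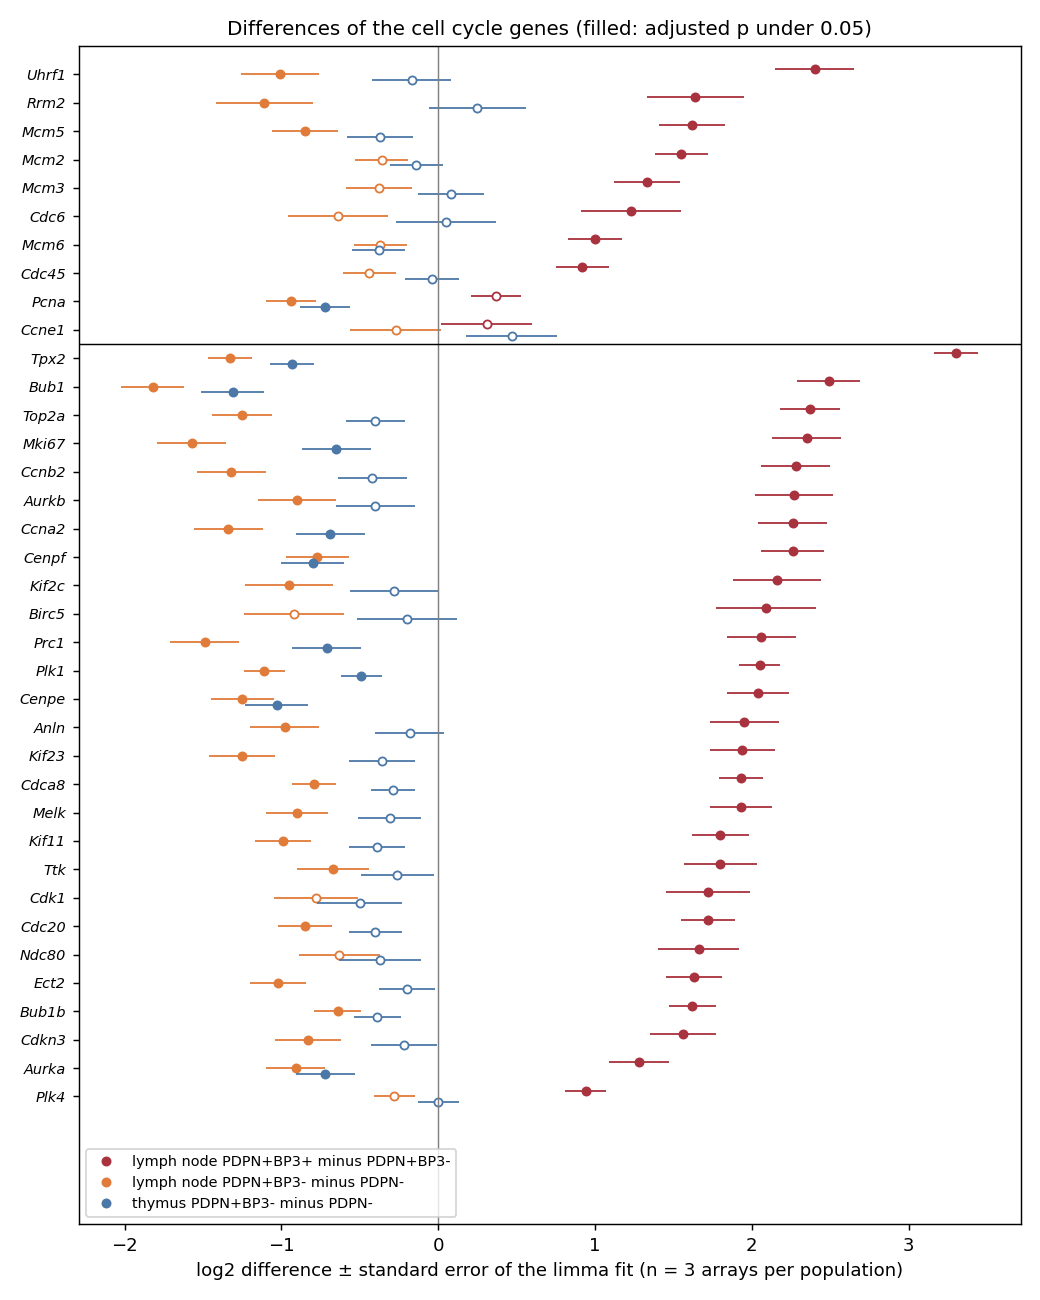
Points are the log2 differences of the 37 measured genes in 3 comparisons, with bars of ± 1 standard error of the limma fit (n = 3 arrays per population), filled where the adjusted p was under 0.05. The difference between PDPN+BP3+ and PDPN+BP3- lymph node cells lies to the right for all genes (0.31 to 3.30), and that between PDPN+BP3- and PDPN- lymph node cells lies to the left for all (-1.82 to -0.27). In thymus, 10 of the differences are filled, all to the left.

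The Ly51-positive PDPN- cells of lymph nodes lay between the podoplanin-positive populations. Compared with them, PDPN+BP3+ cells were higher for 31 of 37 genes and lower for 1, where 16.1% of all genes were called higher and 11.2% lower (median difference 0.92, against 0.00 over all genes). The share of genes called higher was 6 of 10 in S phase and 25 of 27 in mitosis. Tpx2 was higher by 1.97 ± 0.14 (adjusted p 1.60e-08), Cenpf by 1.48 ± 0.20 and Aurkb by 1.38 ± 0.25. Among the S phase genes Uhrf1 was higher by 1.39 ± 0.25, Mcm2 by 1.18 ± 0.17, Mcm3 by 0.95 ± 0.21, Mcm5 by 0.77 ± 0.21, Mcm6 by 0.63 ± 0.17 and Cdc45 by 0.48 ± 0.17. Not called were Ccne1 (0.04 ± 0.29), Cdc6 (0.59 ± 0.32), Rrm2 (0.54 ± 0.31), Aurka (0.37 ± 0.19) and Prc1 (0.56 ± 0.22). Of 7 myeloid markers 3 were higher in PDPN+BP3+ cells, Cd14 by 4.59 ± 0.25, and 1 was lower, 2 of 7 endothelial markers were lower, and the B cell gene Blnk was higher (1.38 ± 0.16), and their part in the result was not tested. The count was 24 called without PDPN- replicate 1 and 23 without PDPN+BP3+ replicate 2, against 32 with all arrays.

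Pcna was the 1 gene that went the other way. It measured 9.41, 9.80 and 9.85 in lymph node PDPN- cells and 9.03, 9.15 and 9.19 in PDPN+BP3+ cells, a difference of -0.56 ± 0.16 (adjusted p 0.0137) with no overlap. Thymus PDPN- cells measured 8.91, 9.07 and 9.06, and podoplanin-positive BP3- cells 8.57, 8.77 and 8.91 in lymph node and 7.93, 8.35 and 8.60 in thymus. Its lymph node PDPN- arrays lay above the 12 others, and it was the 1 gene of the 37 whose highest mean was not in PDPN+BP3+ cells. The call was lost under 3 of 14 alternatives, with adjusted p up to 0.0624.

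Lymph node PDPN+BP3- cells were lower than PDPN- cells of the same nodes for 27 of 37 genes and higher for 0, where 9.79% of all genes were called lower and 13.4% higher (median -0.91, against -0.01 over all genes). The lower genes were 23 of 27 of mitosis and 4 of 10 of S phase. Bub1 was lower by -1.82 ± 0.20 (adjusted p 2.74e-06), from 4.18, 4.41 and 4.75 to 2.66, 2.73 and 2.50. Plk1 went from 4.62, 5.02 and 4.81 to 3.61, 3.73 and 3.77 (-1.11 ± 0.13, adjusted p 3.88e-06). The 4 S phase genes were Rrm2 (-1.11 ± 0.31), Uhrf1 (-1.01 ± 0.25), Pcna (-0.94 ± 0.16) and Mcm5 (-0.85 ± 0.21). The other helicase subunits were not called, at -0.36 ± 0.17 for Mcm2, -0.38 ± 0.21 for Mcm3 and -0.37 ± 0.17 for Mcm6, and neither were Cdc45, Cdc6, Ccne1, Cdk1, Plk4, Ndc80 and Birc5 (-0.92 to -0.27). The count was 22 without PDPN- replicate 2 or without PDPN+BP3- replicate 1, and 32 without PDPN- replicate 1. Myeloid markers were higher in PDPN+BP3- cells for 4 of 7 genes and lower for 1, and endothelial markers were higher for 3 of 7, and their part in the result was not tested. The lymph node comparisons share arrays, so their counts are not independent of each other.

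In thymus the difference between the podoplanin populations was smaller in count. PDPN+BP3- cells were lower than PDPN- cells for 10 of 37 genes and higher for 0, beside 18.2% of all genes called lower and 10.3% higher (median -0.37, against -0.05 over all genes). The 10 were Bub1 (-1.31 ± 0.20, adjusted p 7.80e-05), Cenpe (-1.03 ± 0.20), Tpx2 (-0.93 ± 0.14), Cenpf (-0.80 ± 0.20), Aurka (-0.72 ± 0.19), Prc1 (-0.71 ± 0.22), Ccna2 (-0.69 ± 0.22), Mki67 (-0.65 ± 0.22), Plk1 (-0.49 ± 0.13) and, of S phase, Pcna (-0.72 ± 0.16). Bub1 measured 2.94, 3.14 and 3.69 in PDPN+BP3- and 4.90, 4.34 and 4.47 in PDPN- cells. Its arrays did not overlap, whereas those of Cenpf did. The PDPN+BP3- means of Bub1 and Cenpe were under the table median. Rrm2 (0.25 ± 0.31), Ccne1 (0.47 ± 0.29), Mcm3 (0.08 ± 0.21) and the other S phase genes were not called.

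Other markers and 1 array moved with this comparison. T lineage genes were lower in thymus PDPN+BP3- cells for 4 of 11 genes (median -0.73) and thymic epithelial genes for 3 of 7 (median -0.54), and their part in the result was not tested. Replicate 1 of thymus PDPN+BP3- was the lowest for nearly all of the cell cycle genes. Without it 6 of the 37 were called lower and 1 higher, Ccne1 (0.83, adjusted p 0.0233), beside 2343 lower and 2120 higher of all 18718 genes. Without it T lineage genes were lower for 2 of 11 and higher for 1 (median -0.30). Over all genes, 64.0% of the calls were lower, against 52.5% without that array and 44.5% after cyclic loess. Cyclic loess called 6 of the 37 genes lower, beside 2178 lower and 2711 higher of all 18718 genes.

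Between organs, 1 of the 37 genes was called between the PDPN- populations. It was Pcna, higher in lymph node by 0.67 ± 0.16 (adjusted p 0.0115), where 4.42% of all genes were called higher and 5.19% lower (median 0.13, against -0.01 over all genes). Of the 36 not called, the differences ranged from -0.40 to 0.71, and the widest, that of Rrm2 (0.71 ± 0.31), had an adjusted p of 0.194. T lineage genes were lower in lymph node for 9 of 11 (median -2.50) and thymic epithelial genes for 6 of 7 (median -1.20), and their part was not tested. The Pcna call ended without thymus PDPN- replicate 1 or without lymph node PDPN- replicate 2 or 3, and without lymph node PDPN- replicate 1 the count was 4.

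PDPN+BP3- cells were lower in lymph node than in thymus for 11 genes, all of mitosis, and higher for 0, where 5.29% of all genes were called lower and 11.8% higher (median -0.47, against 0.04 over all genes). They were Ccnb2 (-0.89 ± 0.22), Top2a (-0.87 ± 0.19, adjusted p 0.00438), Aurkb (-0.86 ± 0.25), Ccna2 (-0.85 ± 0.22), Prc1 (-0.74 ± 0.22), Anln (-0.72 ± 0.22), Bub1 (-0.63 ± 0.20), Cdca8 (-0.61 ± 0.14), Ect2 (-0.58 ± 0.18), Cdc20 (-0.56 ± 0.17) and Plk1 (-0.50 ± 0.13). Top2a measured 4.96, 5.68 and 5.13 in lymph node and 5.80, 6.22 and 6.36 in thymus. The T lineage genes were lower in lymph node for 9 of 11 (median -1.74) and thymic epithelial genes for 6 of 7 (median -0.66). Myeloid and endothelial genes were each higher for 4 of 7, and the part of these markers in the result was not tested. The count was 3 without lymph node PDPN+BP3- replicate 1, 6 without its replicate 3, 7 without thymus PDPN+BP3- replicate 2, 6 without its replicate 3 (5 lower, and Pcna higher by 0.61), and 13 without its replicate 1. Over all genes 30.9% of the calls were lower, against 53.9% after cyclic loess and 48.9% after quantile normalization, which called 18 and 17 of the 37 genes.

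Lymph node PDPN+BP3+ cells were higher than thymus PDPN+BP3- cells for 35 of 37 genes and lower for 0, where 19.4% of all genes were called higher and 9.14% lower (median 1.40, against 0.04 over all genes). The exceptions were Ccne1 (0.05 ± 0.29) and Cdc6 (0.89 ± 0.32, adjusted p 0.0508). Tpx2 was higher by 3.07 ± 0.14, Cenpe by 1.99 ± 0.20 and Bub1b, a checkpoint protein, by 1.66 ± 0.15. This was the 1 comparison between PDPN+BP3+ and another population in which Pcna was called higher (0.83 ± 0.16, adjusted p 0.0008). Over all genes 32.0% of the calls were lower, against 53.1% after cyclic loess, and the count of the 37 genes stayed between 33 and 36 under the alternatives run. T lineage genes were lower in PDPN+BP3+ cells for 9 of 11 (median -1.83) and thymic epithelial genes for 5 of 7 (median -0.50). Myeloid genes were higher for 3 of 7, endothelial genes higher for 2 and lower for 1 of 7, and B cell genes higher for 1 of 6. The part of these markers in the result was not tested.

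The interaction tested directly whether PDPN+BP3- and PDPN- cells differ by the same amount in both organs. The lymph node difference was below the thymus difference for Plk1 (-0.63 ± 0.18, adjusted p 0.0284) and Ect2 (-0.82 ± 0.25, adjusted p 0.0455), 2 of 37 genes, with 0 called above it, where 4.05% of all genes were called lower and 8.67% higher. The median was -0.50, against 0.06 over all genes. The estimate was below 0 for 35 of the 37 genes, and the 2 above it were Mcm6 (0.01 ± 0.24) and Cenpf (0.03 ± 0.28). Top2a (-0.85 ± 0.27, adjusted p 0.0510) and Rrm2 (-1.35 ± 0.44, adjusted p 0.0564) narrowly missed the threshold and were not called. The count of 2 genes became 13 after quantile normalization, 15 after cyclic loess, and 8 both after median centring and with the replicate number as a block. The count also depended on single arrays: it was 14 without lymph node PDPN- replicate 1, 7 without thymus PDPN+BP3- replicate 1, 1 without thymus PDPN+BP3- replicate 2 or 3, 4 and 3 without thymus PDPN- replicate 3 and lymph node PDPN+BP3- replicate 2, and 0 without thymus PDPN- replicate 1 or 2, lymph node PDPN- replicate 2 or lymph node PDPN+BP3- replicate 1. Over all genes 31.8% of the calls were lower, against 57.8% after cyclic loess and 50.1% after quantile normalization.

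Other genes of replication and mitosis, listed apart from the 42, were counted in the same way. In PDPN+BP3+ against PDPN+BP3- cells of lymph node, 21 of 29 further replication genes were higher and 0 lower (median 0.89), among them the primase subunit Prim1 (1.63 ± 0.18), the polymerase Pole (1.52 ± 0.18), the replication factor Mcm10 (1.11 ± 0.14) and the thymidine kinase Tk1 (1.19 ± 0.15). Of 36 further mitosis genes 33 were higher and 1 lower (median 1.5), where 8.49% of all genes were called higher and 7.74% lower. The spindle pole gene Aspm (2.22 ± 0.21), the kinetochore gene Nuf2 (2.27 ± 0.22), the spindle factor Dlgap5 (1.80 ± 0.18) and the chromosome motor Kif4 (1.65 ± 0.17) were among the higher. The 1 lower gene was Pttg1 (-0.67 ± 0.13), the securin that holds back the separation of sister chromatids. Against lymph node PDPN- cells it was lower by -1.07 ± 0.13 (adjusted p 6.24e-06), and it measured 6.22, 5.84 and 5.92 in PDPN+BP3+ cells. Its value against PDPN+BP3- cells was named after it was seen.

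In lymph node PDPN+BP3- against PDPN- cells, 8 of 29 replication genes (median -0.37) and 27 of 36 mitosis genes (median -0.80) were lower. In the same comparison 0 replication genes and 1 mitosis gene were higher, where 9.79% of all genes were called lower and 13.4% higher. Aspm (-1.66 ± 0.21) and the condensin subunit Ncaph (-1.39 ± 0.18) were examples of the lower mitosis genes. In thymus the counts were 3 of 29 and 13 of 36 lower with 0 higher, beside 18.2% of all genes called lower. Without PDPN+BP3- replicate 1, an alternative chosen after seeing the data for these lists, they were 2 and 9, beside 2343 of all 18718 genes. They were led by the polymerase subunit Pola2 (-1.24 ± 0.16) and the centromere histone Cenpa (-1.32 ± 0.17). Against lymph node PDPN- cells, PDPN+BP3+ cells were higher for 15 and lower for 1 of the replication genes. Of the mitosis genes 21 were higher and 1 lower, where 16.1% of all genes were called higher and 11.2% lower. The lower genes were Pola2 (-0.74 ± 0.16) and Pttg1, and the 1 mitosis gene higher in lymph node PDPN+BP3- than in PDPN- cells was the CDK subunit gene Cks1b (0.82 ± 0.20), both Pola2 and Cks1b being named after their values were seen.

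The D cyclins differed from each other in pattern. Ccnd1 measured 9.68, 9.57 and 9.75 in lymph node PDPN+BP3+ cells, while the 12 other arrays lay between 7.61 and 8.88. It was higher there than in PDPN+BP3- cells by 1.68 ± 0.17 (adjusted p 1.63e-06) and than in PDPN- cells by 1.07 ± 0.17. Ccnd1 was lower in lymph node PDPN+BP3- than in PDPN- cells (-0.61 ± 0.17), a call lost under 3 of 14 alternatives. Ccnd2 was highest in the PDPN- cells, at 10.12, 10.28 and 10.14 in thymus and 9.80, 9.86 and 9.87 in lymph node. PDPN+BP3- cells were lower by -2.45 ± 0.17 in thymus (7.29, 7.94 and 7.95) and by -1.27 ± 0.17 in lymph node (8.54, 8.86 and 8.32), and the interaction was 1.18 ± 0.23 (adjusted p 0.00285). Ccnd3 was highest in thymus PDPN+BP3- cells, at 7.44, 7.86 and 7.88, and was lower in PDPN+BP3+ than in lymph node PDPN+BP3- cells by -0.60 ± 0.14. Their kinase genes Cdk4 (0.46 ± 0.11) and Cdk6 (0.90 ± 0.15) were higher in PDPN+BP3+ than in lymph node PDPN+BP3- cells.

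**Figure D5:**
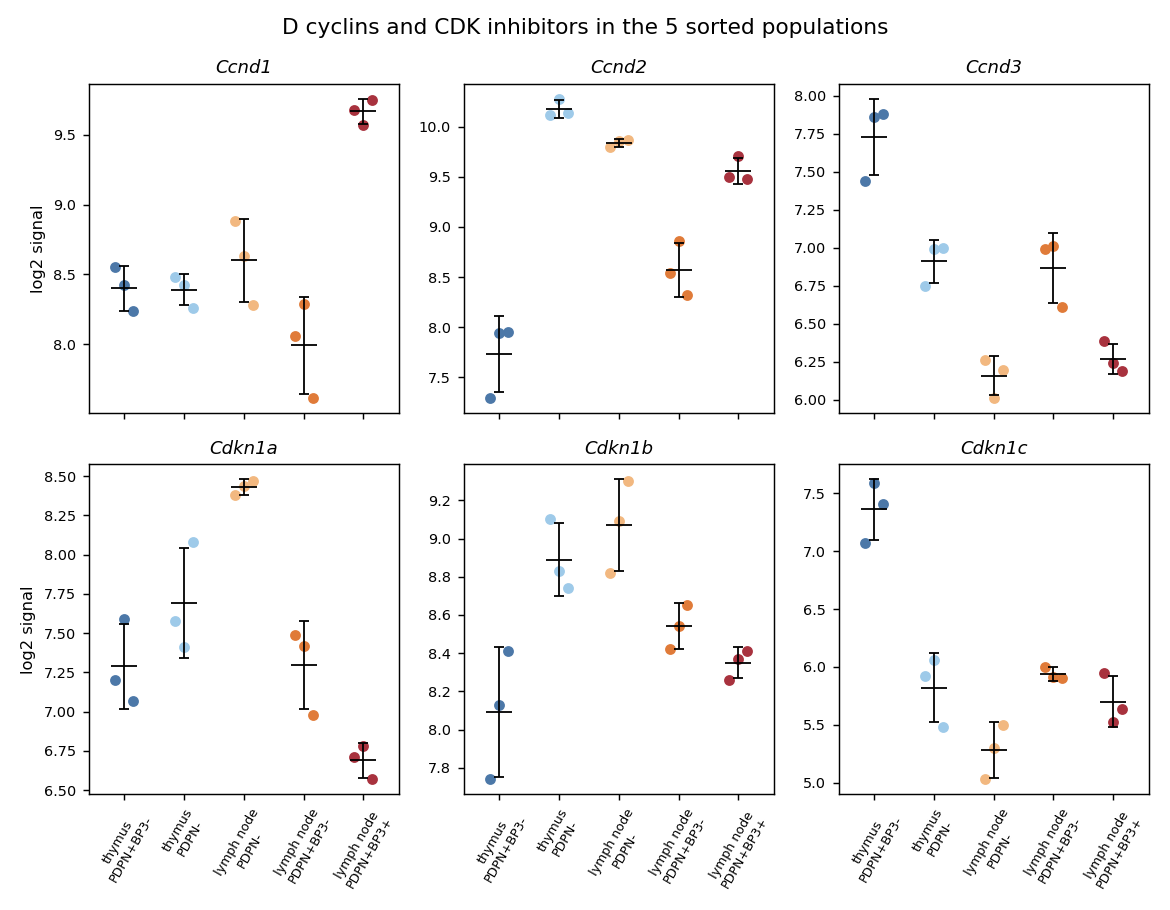
Points are the log2 signals of single arrays for 3 D cyclins and 3 CDK inhibitors in the 5 sorted populations, and the bars are mean ± SD (n = 3). Lymph node PDPN+BP3+ arrays are the highest for Ccnd1 (9.57 to 9.75) and the lowest for Cdkn1a (6.57 to 6.78), while Cdkn1c is highest in thymus PDPN+BP3- cells. The vertical axes do not start at 0 and differ between genes.

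Of 13 CDK inhibitor and quiescence genes, 1 was higher and 3 lower in PDPN+BP3+ than in PDPN+BP3- lymph node cells (median -0.19), where 8.49% of all genes were called higher and 7.74% lower. Cdkn1a, the p53 target that codes for p21, measured 6.71, 6.78 and 6.57 in PDPN+BP3+ cells, below the 12 other arrays. The difference was -0.61 ± 0.18 against PDPN+BP3- cells (adjusted p 0.0248) and -1.74 ± 0.18 against PDPN- cells (adjusted p 1.02e-06), in which it measured 8.38, 8.44 and 8.47. Cdkn1a was also lower in lymph node PDPN+BP3- than in PDPN- cells (-1.13 ± 0.18, adjusted p 0.000124). The call for PDPN+BP3+ against PDPN+BP3- cells was lost under 4 of 14 alternatives (adjusted p up to 0.115). The antiproliferative genes Tob1 (-0.85 ± 0.15) and Btg2 (-0.63 ± 0.17) were lower too, the call of Btg2 being lost under 2 of 14 alternatives, and Cdkn2c (p18) was higher (0.86 ± 0.11). Cdkn1b (p27) was not called in this comparison (-0.19 ± 0.16). It was called between PDPN+BP3- and PDPN- cells of thymus, with 0 of 14 alternatives ending the call. In lymph node it was called for PDPN- cells against PDPN+BP3- (5 of 14 ended it) and PDPN+BP3+ cells (1 of 14).

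The thymus PDPN+BP3- cells had the highest levels of some inhibitor genes. Cdkn2b (p15) measured 6.50, 6.23 and 6.66 there and 4.08 to 4.67 on the 12 other arrays, a difference of 2.28 ± 0.14 from thymus PDPN- cells (adjusted p 1.26e-09). The interaction with organ was -2.35 ± 0.19 (adjusted p 6.10e-07). Cdkn1c (p57) measured 7.07, 7.59 and 7.41 in those cells against 5.92, 6.06 and 5.48 in thymus PDPN- cells (1.54 ± 0.17). Without thymus PDPN+BP3- replicate 1 the differences were 2.27 for Cdkn2b and 1.68 for Cdkn1c. Over the list, 3 of 13 were higher and 6 lower in thymus PDPN+BP3- than in PDPN- cells, where 10.3% of all genes were called higher and 18.2% lower. Without that array 5 were higher and 4 lower, beside 2120 higher and 2343 lower of all 18718 genes. With all arrays, Cdkn2c was among the lower (-1.18 ± 0.11, adjusted p 5.54e-07) and Gas1 among the higher (1.25 ± 0.20). The interaction with organ was 0.99 ± 0.16 for Cdkn2c.

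Of 14 E2F, MYB and RB family genes measured, 4 were higher and 0 lower in PDPN+BP3+ than in PDPN+BP3- lymph node cells (median 0.33), where 8.49% of all genes were called higher and 7.74% lower. They were the E2F repressors E2f8 (1.74 ± 0.20) and E2f7 (1.18 ± 0.24), the RB relative Rbl1 (1.0 ± 0.16) and Mybl2 (0.88 ± 0.20), the MYB of the MuvB complex. E2f1 was not called there (-0.13 ± 0.20) and was above its PDPN- level in PDPN+BP3- cells of thymus (0.66 ± 0.20) and of lymph node (0.62 ± 0.20), calls lost under 2 and 3 of 13 alternatives. Rb1 was lower in PDPN+BP3- cells, against the PDPN- cells of the same organ, in thymus (-1.58 ± 0.15) and in lymph node (-1.12 ± 0.15), and it was lower in lymph node PDPN+BP3+ than in PDPN- cells (-0.83 ± 0.15). Mybl2 was lower in lymph node PDPN+BP3- than in PDPN- cells (-0.71 ± 0.20), a call lost under 3 of 14 alternatives. Foxm1 was in a transcript cluster with several symbols and was not measured.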

How the data were processed

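Gene expression was measured on 15 one-colour arrays. The deposited values are log2 signals, normalized by RMA in Affymetrix Expression Console per the submitters' processing notes. The sources used here give no versions, and the log base was inferred from the range of 1.07 to 12.07. Of 24758 transcript clusters, 20844 carried 1 gene symbol in the platform annotation, 1735 several and 2179 none. The transcript cluster with the highest mean was kept for each of 1230 genes with several, which left 18718 genes with no filter on dim signals.

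limma 3.58.1 in R 4.3.3 was fitted with 1 mean per population over all 15 arrays (eBayes, 10 residual degrees of freedom), and p-values were adjusted by Benjamini-Hochberg over the 18718 genes. The method was tested on simulated data. The labels name 3 individual experiments. The number of arrays limits the precision. All 42 genes are accounted for. Of the other lists, genes named were drawn from up to 4 called genes with the smallest adjusted p per comparison. D cyclins, Cdkn1a to Cdkn1c, E2f1 and Mybl2 were added to these. Not every call of these genes is printed. The genes, lists and promoters were chosen with earlier results of these data known. Alternatives were 3 scalings, the compared arrays alone, another prior, a filter on dim genes, the mean of transcript clusters, the replicate number as a block, and each array left out.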

Additional observations from a re-analysis of the deposited data

Results flagged for a closer look

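For 8 genes the gap of PDPN+BP3- from PDPN- cells was unequal in the organs by the interaction test of limma. It is given as the lymph node difference minus the thymus difference. Of all genes, 8.67% were called higher and 4.05% lower in this test. The calls were 2 of the 37 genes, 0 of 29 further replication genes and 1 of 36 further mitosis genes, all lower. Of the E2F, MYB and RB family genes, 1 of 14 was lower. D cyclins and their kinases gave 1 of 6 (higher), and CDK inhibitor and quiescence genes 1 higher and 2 lower of 13. Plk1 gave -0.63 ± 0.18 (adjusted p 0.0284), and over the alternatives run it ranged from -0.89 to -0.53, with 7 of 20 ending the call. Ect2, the exchange factor that starts cleavage, gave -0.82 ± 0.25 (adjusted p 0.0455), from -1.06 to -0.57, with 10 of 20 ending the call. The spindle pole gene Aspm gave -1.0 ± 0.30 (adjusted p 0.0383), and 7 alternatives ended the call. Mybl2 gave -0.96 ± 0.28 (adjusted p 0.0336), and 5 ended it. Cdkn1c gave -0.88 ± 0.24 (adjusted p 0.0265), and 6 ended it. The calls of Ccnd2 (1.18 ± 0.23, adjusted p 0.00285), Cdkn2b (-2.35 ± 0.19, adjusted p 6.10e-07) and Cdkn2c (0.99 ± 0.16, adjusted p 0.000604) held under all 20. The causes were not tested.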

How the results depend on the processing

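Of 153 calls of 1 of the 37 genes in 1 comparison, no direction was reversed under any alternative run. The calls held under every alternative for 34 of 35 genes for PDPN+BP3+ against PDPN+BP3- cells of lymph node, 34 of 35 against thymus PDPN+BP3- cells, 21 of 32 against lymph node PDPN- cells, 21 of 27 for PDPN+BP3- against PDPN- cells of lymph node, 5 of 10 in thymus, 3 of 11 between PDPN+BP3- cells of the organs, 0 of 1 between PDPN- cells and 0 of 2 in the interaction. The thymus count of 10 was 6 after cyclic loess. The count of 11 between PDPN+BP3- cells was 17 after quantile normalization, 18 after cyclic loess and 7 with the compared groups only. The interaction count of 2 was 13 after quantile normalization, 15 after cyclic loess, 8 after median centring, 1 with the compared groups only, 7 with dim genes left out and 8 with the replicate block. The causes were not tested. With 1 array left out, the counts were 34 to 35 for lymph node PDPN+BP3+ against PDPN+BP3-, 23 to 32 against PDPN- and 34 to 36 against thymus PDPN+BP3-, 22 to 32 for lymph node PDPN+BP3- against PDPN-, 3 to 13 for PDPN+BP3- and 0 to 4 for PDPN- between organs, 7 to 11 in thymus, and 0 to 14 in the interaction. The share of lower calls over all genes after median centring was 45.7% between PDPN+BP3- cells (30.9% as deposited), 50.2% for lymph node PDPN+BP3+ against thymus PDPN+BP3- (32.0%) and 43.1% in the interaction (31.8%); after quantile normalization the PDPN+BP3+ against thymus share was 47.5%. Over all genes, same-numbered arrays of different populations gave correlations of -0.174 to 0.288, 6 of 30 over 0.1. Arrays of different numbers gave -0.305 to 0.223, 9 of 60 over 0.1, and 8 of 15 arrays correlated best with their own number. The labels do not say that a number marks the same experiment across populations, and these values do not settle it. The main fit did not take the numbers to pair the samples. Over the 37 genes replicate 2 was the highest of each lymph node population for 27, 31 and 25 genes. The block left 152 of the 153 calls in place and raised the count for lymph node PDPN+BP3- against PDPN- from 27 to 31. Of 125 calls of named genes outside the 37, 94 held under every alternative. Dim signals limit the 10 genes with a mean under the table median.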
